A study of Arabidopsis thaliana and Cardamine hirsuta and Capsella rubella with 102 samples.

Results

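This report describes 10 L-type lectin receptor kinase genes of *A. thaliana* that belong to clades I, VI and IX of the family, of 27416 genes in the Col-0 count table. They were chosen by their locus identifiers: *LecRK-I.7* (AT5G60270), *LecRK-I.8* (AT5G60280), *LecRK-I.9* (AT5G60300, also called DORN1), *LecRK-I.10* (AT5G60310) and *LecRK-I.11* (AT5G60320) of clade I, *LecRK-VI.2* (AT5G01540), *LecRK-VI.3* (AT5G01550) and *LecRK-VI.4* (AT5G01560) of clade VI, and *LecRK-IX.1* (AT5G10530) and *LecRK-IX.2* (AT5G65600) of clade IX. Transcripts were measured by strand-specific RNA-seq in whole seedlings that were 12 days old and that received 1 µM flg22, a peptide from bacterial flagellin, or fresh growth medium as mock. *A. thaliana* Col-0, *Capsella rubella* (N22697), *Cardamine hirsuta* (Oxford) and *Eutrema salsugineum* (Shandong) were harvested 1, 9 and 24 h after flg22 or mock, and the *A. thaliana* accessions Kn-0, Kon, Can-0, No-0 and Gy-0 at 1 h. No line carries a mutation or a transgene. Each combination of genotype, treatment and time had 3 libraries, 1 from each of 3 independent experiments, and each library combined the seedlings of several wells. Orthologs in the other species were listed for 3 of the 10 genes, *LecRK-I.7*, *LecRK-VI.3* and *LecRK-IX.2*, in tables of which the widest was held only in part, and orthologs of the other members were not analysed here.

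L-type lectin receptor kinases are membrane proteins with an extracellular domain that resembles legume lectins, a transmembrane stretch and a cytoplasmic kinase domain, and several of them sense molecules that wounding or infection releases outside the cell. The receptor kinase *FLS2* binds flg22 together with the coreceptor *BAK1*, and the signal passes through the cytoplasmic kinase *BIK1* to the NADPH oxidase *RBOHD* and to changes in transcription known as pattern-triggered immunity. *LecRK-I.9* is a receptor for extracellular ATP, and *LecRK-I.8* has been linked to the perception of extracellular NAD+. *LecRK-VI.2* contributes to resistance against bacteria and has been found in complex with *FLS2*. Both genes of clade IX have been linked to resistance against the oomycete *Phytophthora*. The 3 genes of clade VI studied here are also known as regulators of abscisic acid responses during seed germination.

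All 10 genes lie on chromosome 5. In the RefSeq annotation of TAIR10.1, the clade I members stand in a row on the plus strand between positions 24257723 and 24272835. The clade VI members stand in a row on the minus strand between 210979 and 221198. *LecRK-IX.1* (3324824 to 3327868) and *LecRK-IX.2* (26215991 to 26218623), both on the minus strand, are far from each other. Of the longest transcripts, 8 have a single exon, *LecRK-I.10* has 2 and *LecRK-I.9* has 3. Among the members, coding sequences were 68.5% to 82.8% identical within clade I, 78.7% to 80.6% within clade VI and 71.8% within clade IX. Between clades they were 44.4% to 51.5% identical. The closest pair was *LecRK-I.9* and *LecRK-I.10*. No stretch of 100 bases of any member's coding sequence was found elsewhere in the genome. In this annotation *LecRK-I.9* and *LecRK-I.10* share 19 bases at their border, and *LecRK-IX.2* shares 292 bases with the gene AT5G65609 on the same strand. Reads that overlap both genes are left uncounted only if the annotation used for counting holds both, which was not checked. *LecRK-VI.2*, *LecRK-VI.4* and *LecRK-IX.1* overlap genes on the opposite strand, by 2456 of 2494, 225 of 3170 and 3045 of 3045 bases. The libraries were strand-specific, but whether the counts of these genes keep the strands apart was not checked.

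The sequences in front of the genes are shown because the clade VI members and *LecRK-IX.2* rose in every comparison of flg22 with mock. The pentamer TTGAC is the core of the W box, the element that WRKY transcription factors bind. Below are the 250 bases upstream of the annotated start (TAIR10.1, RefSeq), read 5′ to 3′ on the strand of the gene, with TTGAC, or GTCAA where it lies on the other strand, in capitals. *LecRK-VI.2* (chr5:213473-213722, minus strand), *LecRK-VI.3* (chr5:216774-217023, minus strand) and *LecRK-IX.2* (chr5:26218624-26218873, minus strand) had the largest fold changes in Col-0 at 1 h, though not in every comparison. *LecRK-I.9* (chr5:24264238-24264487, plus strand) did not pass the test in any comparison of flg22 with mock.
LecRK-VI.2: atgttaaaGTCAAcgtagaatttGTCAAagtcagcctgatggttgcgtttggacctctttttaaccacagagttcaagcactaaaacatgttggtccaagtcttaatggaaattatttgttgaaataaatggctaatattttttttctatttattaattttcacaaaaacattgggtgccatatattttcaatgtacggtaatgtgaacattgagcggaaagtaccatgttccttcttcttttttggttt
LecRK-VI.3: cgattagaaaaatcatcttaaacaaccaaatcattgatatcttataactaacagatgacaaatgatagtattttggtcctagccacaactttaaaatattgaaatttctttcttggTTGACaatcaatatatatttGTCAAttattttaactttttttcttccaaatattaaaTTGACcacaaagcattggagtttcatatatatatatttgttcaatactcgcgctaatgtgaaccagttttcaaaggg
LecRK-IX.2: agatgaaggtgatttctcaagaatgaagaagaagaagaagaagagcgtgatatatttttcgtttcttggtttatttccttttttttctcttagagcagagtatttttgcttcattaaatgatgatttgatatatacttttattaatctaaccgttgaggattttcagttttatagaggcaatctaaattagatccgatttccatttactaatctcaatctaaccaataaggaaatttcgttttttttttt
LecRK-I.9: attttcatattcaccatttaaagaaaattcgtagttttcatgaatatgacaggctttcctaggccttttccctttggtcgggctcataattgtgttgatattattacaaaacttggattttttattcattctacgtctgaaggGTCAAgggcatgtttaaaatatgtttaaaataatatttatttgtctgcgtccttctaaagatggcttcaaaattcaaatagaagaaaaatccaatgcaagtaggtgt
The window of *LecRK-VI.3* holds 3 copies of TTGAC, 73, 110 and 130 bases before the start. *LecRK-VI.2* has 2 copies, 223 and 238 bases before the start, *LecRK-I.9* has 1, and *LecRK-IX.2* has 0. Searched on both strands, TTGAC was present in 6 of the 10 windows, against 44.9% of the windows of the same length before 27443 protein-coding genes, and 3 members had 2 or more copies, against 14.1%. *LecRK-IX.1*, which did not pass the test after flg22, also had 2 copies, and *LecRK-VI.4*, which rose in every comparison, had 0. Of its longer forms, TTGACC was found in 2 members (12.2% of all windows) and TTGACT in 3 (19.1%). The hexamer ACGCGT was found in 0 members (1.67% of all windows). Annotated neighbouring genes overlap the windows of *LecRK-VI.2* (AT5G01542), *LecRK-VI.4* (AT5G01570), *LecRK-IX.1* (AT5G10540) and *LecRK-IX.2* (AT5G65609). The same holds for *LecRK-I.7* (AT5G60265), *LecRK-I.8* (AT5G60270) and *LecRK-I.10* (AT5G60300).

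Col-0 libraries held 21813097 to 35607867 reads counted to genes and those of the other accessions 14039779 to 28168094. The photosynthesis gene RBCS1A was at 4180 to 17500 CPM (a gene's reads relative to all reads counted in the library, scaled by TMM) over the *A. thaliana* libraries and CAB3 at 337 to 8590 CPM. The root hair genes COBL9 (0.521 to 5.67 CPM) and EXP7 (1.2 to 61.4 CPM) were detected in all of them, the seed storage genes CRA1 and CRC had medians of 0, and of the flower genes AP3 had a median of 0.0853 CPM and PI was at 0.22 to 1.7 CPM. *FRK1*, a receptor kinase gene commonly used as a marker of the flg22 response, rose by 5.75 ± 0.45 (log2 fold change ± SE) in Col-0 at 1 h, and it also rose in each of the 5 other accessions.

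To find out which of the 10 genes respond to flg22 in the reference accession, Col-0 seedlings at 1 h were compared first. A gene was called where edgeR's quasi-likelihood test gave an adjusted p below 0.01 (Benjamini-Hochberg over all 20295 genes tested) and the log2 fold change was above 1 or below -1. Of the 9 members tested, 6 rose and 0 fell, against 9.64% of all genes tested that rose and 2.3% that fell. At an unadjusted p below 0.05, 1 member was lower (*LecRK-IX.1*), and limma-voom and the DESeq2 Wald test also called 0 lower. The 6 were the 3 clade VI members, *LecRK-IX.2*, *LecRK-I.7* and *LecRK-I.8*. *LecRK-I.9*, *LecRK-I.10* and *LecRK-IX.1* did not pass the test, and *LecRK-I.11* had too few reads to be tested. The median log2 fold change was 2.64 over the 9 members and -0.09 over all genes. In whole seedlings, a change in the number of cells of a type and a change in RNA per cell cannot be told apart.

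*LecRK-IX.2* had the largest fold change of the 10 genes. Its level was 60.1, 28.5 and 56.7 CPM in the flg22 libraries of experiments 1, 2 and 3, against 0.503, 0.122 and 0.390 CPM in the mock libraries. The groups were far apart, but the mock level rests on few reads, down to 3 counts in experiment 2. The log2 fold change was 7.14 ± 0.39 (adjusted p = 2.92e-10). *LecRK-IX.1*, its only clade mate, was at 2.93, 7.81 and 4.79 CPM with flg22, against 7.20, 6.62 and 7.86 CPM with mock. These groups overlapped, and the log2 fold change of -0.56 ± 0.25 did not pass the test (adjusted p = 0.0872).

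All 3 clade VI members rose. *LecRK-VI.1*, also of clade VI but not a member, did not pass the test at 1 h (log2 fold change 1.93 ± 0.61, adjusted p = 0.0202). It was called at 24 h (2.57 ± 0.58, adjusted p = 0.00411) but not at 9 h (adjusted p = 0.0132). *LecRK-VI.2* was at 114, 62.6 and 153 CPM with flg22, against 3.02, 1.10 and 2.09 CPM with mock, a log2 fold change of 5.73 ± 0.35 (adjusted p = 1.09e-09). *LecRK-VI.3* was at 23.3, 13.8 and 30.9 CPM with flg22, against 0.658, 0.0406 and 0.425 CPM with mock, a log2 fold change of 5.90 ± 0.46 (adjusted p = 2.13e-08), and the lowest of these mock libraries held 1 count. *LecRK-VI.4* was at 24.6, 10.8 and 20.0 CPM with flg22, against 2.13, 1.14 and 0.885 CPM with mock, a log2 fold change of 3.72 ± 0.35 (adjusted p = 1.95e-07). For none of the 3 did any flg22 library reach down to a mock library, and the lowest flg22 library of each came from experiment 2.

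The clade I members were divided. *LecRK-I.7* rose to 44.8, 24.7 and 52.1 CPM with flg22, against 5.96, 4.02 and 9.74 CPM with mock, a log2 fold change of 2.64 ± 0.20 (adjusted p = 1.1e-08). *LecRK-I.8*, its neighbour on the chromosome, was at 10.6, 7.12 and 9.43 CPM with flg22, against 2.05, 2.72 and 3.12 CPM with mock, a log2 fold change of 1.74 ± 0.30 (adjusted p = 0.000191). The groups of both genes were apart, but the call of *LecRK-I.8* was lost without experiment 1 (adjusted p = 0.0123). *LecRK-I.9*, an ATP receptor gene, was at 17.2, 13.0 and 15.4 CPM with flg22, against 16.8, 14.7 and 16.6 CPM with mock. The groups overlapped, with a log2 fold change of -0.08 ± 0.15 (adjusted p = 0.693). *LecRK-I.10* was at 1.19, 1.34 and 1.21 CPM with flg22, against 0.929, 0.772 and 1.56 CPM with mock, and its log2 fold change of 0.23 ± 0.53 (adjusted p = 0.755) rests on 19 to 44 counts per library. *LecRK-I.11* was at 0.198, 0 and 0.0709 CPM with flg22, against 0 CPM in every mock library, and over all 48 *A. thaliana* libraries it had at most 12 counts, so no difference was detectable at this depth.

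**Figure D1:**
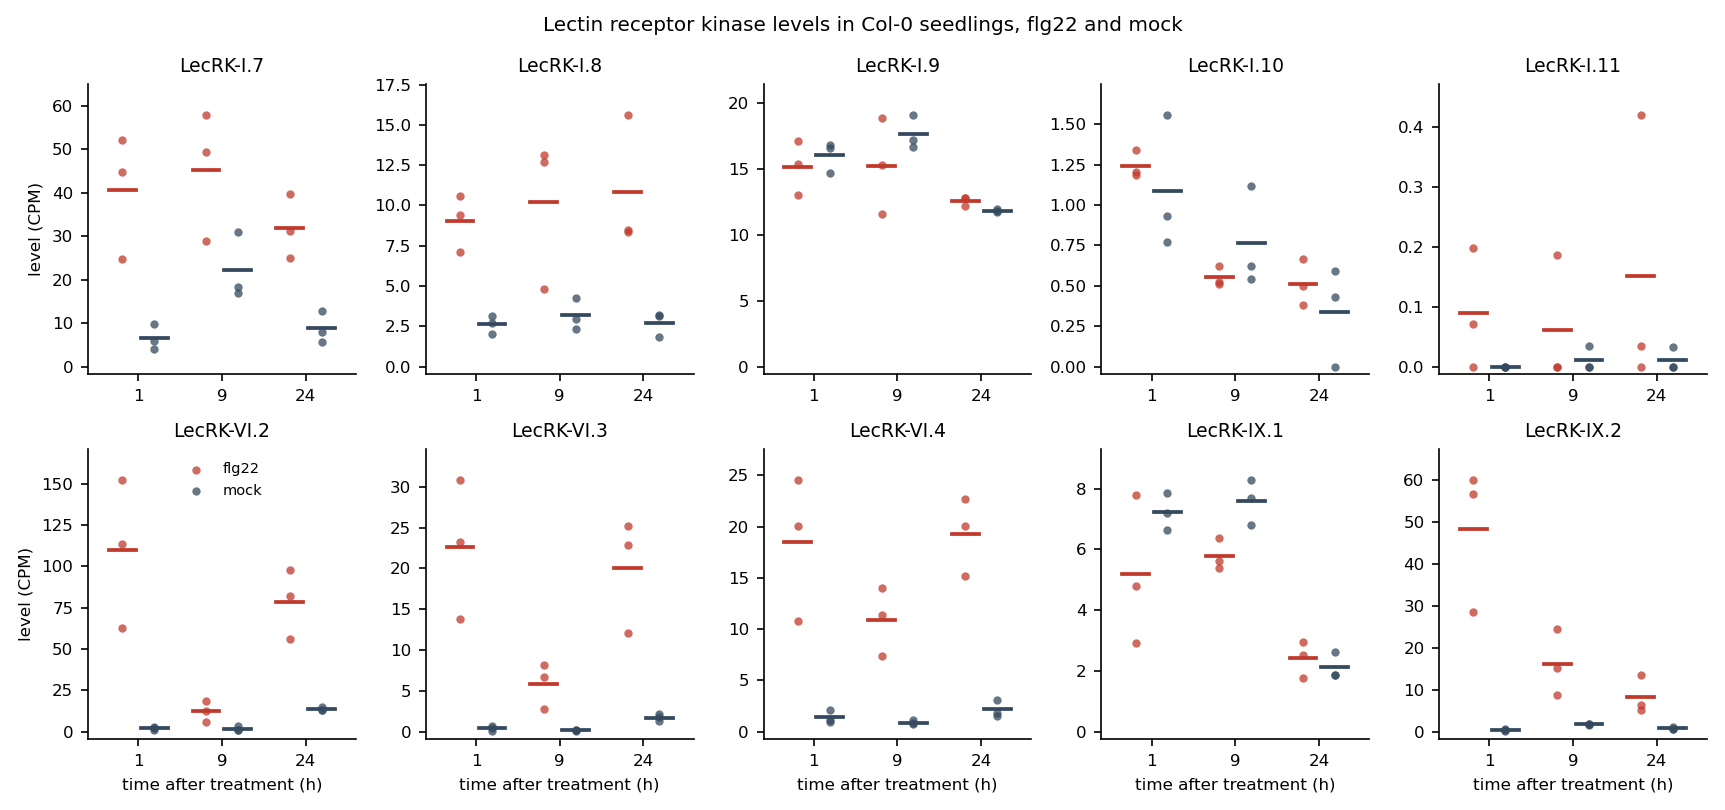
Level of each of the 10 genes in Col-0 seedlings (vertical axis, CPM on a linear scale that starts near 0 and differs between panels) at 1, 9 and 24 h (horizontal axis), with flg22 in red left of mock in blue. Each point is 1 library and each bar the mean of 3 libraries. *LecRK-VI.2* averaged 110 CPM with flg22 against 2.07 CPM with mock at 1 h, whereas the points of *LecRK-I.9* overlap at 1 and 9 h.

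Per kilobase of coding sequence, the order of the 10 genes differed between the treatments at 1 h. Reads are counted over whole exons, untranslated parts included, so that the order can depend on the length chosen. *LecRK-IX.1* has 3045 bases in all and 1956 coding bases, *LecRK-VI.4* 3170 and 2076, and *LecRK-I.7* 2321 and 2007. An order by the full length was not worked out. With flg22, *LecRK-VI.2* stood highest at 53.5 ± 22.0 CPM per kb (SD, n = 3), followed by *LecRK-IX.2* at 23.9 ± 8.56, *LecRK-I.7* at 20.2 ± 7.08, *LecRK-VI.3* at 10.7 and *LecRK-VI.4* at 8.90 CPM per kb. *LecRK-I.9* came next at 6.60 CPM per kb, ahead of *LecRK-I.8* at 4.59, *LecRK-IX.1* at 2.65, *LecRK-I.10* at 0.672 and *LecRK-I.11* at 0.0441 CPM per kb. With mock, *LecRK-I.9* stood highest at 6.97 CPM per kb, followed by *LecRK-IX.1* at 3.70, *LecRK-I.7* at 3.28, *LecRK-I.8* at 1.33 and *LecRK-VI.2* at 1.01 CPM per kb. *LecRK-VI.4* at 0.667, *LecRK-I.10* at 0.587, *LecRK-VI.3* at 0.177, *LecRK-IX.2* at 0.167 and *LecRK-I.11* at 0 CPM per kb closed the mock order. With flg22 the ranges of neighbours in the order overlapped except between *LecRK-VI.2* and *LecRK-IX.2*, *LecRK-I.9* and *LecRK-I.8*, *LecRK-IX.1* and *LecRK-I.10*, and *LecRK-I.10* and *LecRK-I.11*. With mock they overlapped except between *LecRK-I.9* and *LecRK-IX.1*, *LecRK-I.7* and *LecRK-I.8*, *LecRK-I.10* and *LecRK-VI.3*, and *LecRK-IX.2* and *LecRK-I.11*. *LecRK-I.9* and *LecRK-IX.1*, which led with mock on this scale, did not pass the test. *LecRK-IX.2* followed *LecRK-VI.2* with flg22 but stood above *LecRK-I.11* alone with mock.

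The later time points were compared to see whether the response lasted. At 9 h, 6 of the 9 members tested were higher with flg22 and 0 lower, against 6.51% and 4.55% of all genes. At 24 h the count was again 6 higher and 0 lower, against 6.06% and 1.17% of all genes. At both times 0 members were lower at an unadjusted p below 0.05 or with limma-voom or the DESeq2 Wald test. These were *LecRK-I.7*, *LecRK-I.8*, *LecRK-VI.2*, *LecRK-VI.3*, *LecRK-VI.4* and *LecRK-IX.2* at each time.

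*LecRK-IX.2* and *LecRK-VI.2* had the fold changes that differed most between the times. *LecRK-IX.2* had 24.5, 8.79 and 15.1 CPM with flg22 at 9 h, against 1.48, 1.89 and 1.70 CPM with mock (log2 fold change 3.12 ± 0.31, adjusted p = 1.07e-06). At 24 h it had 13.5, 6.22 and 5.10 CPM with flg22, against 1.03, 0.562 and 0.696 CPM with mock (3.41 ± 0.34, adjusted p = 1.41e-06). The flg22 level of *LecRK-IX.2* was thus highest at 1 h and its groups stayed apart at all times. *LecRK-VI.2* took another course: it had 12.6, 5.66 and 18.2 CPM with flg22 at 9 h, against 3.16, 0.929 and 1.11 CPM with mock (2.75 ± 0.33, adjusted p = 9.64e-06). At 24 h it had 97.8, 56.1 and 82.3 CPM with flg22, against 12.9, 12.8 and 14.8 CPM with mock (2.49 ± 0.29, adjusted p = 7.96e-06). Its flg22 libraries at 24 h overlapped those at 1 h, and its mock libraries at 24 h all lay above those at 1 h.

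*LecRK-VI.3*, *LecRK-VI.4* and *LecRK-I.8* also rose at both later times. *LecRK-VI.3* averaged 5.85 ± 2.78 CPM with flg22 at 9 h, against 0.163 ± 0.099 CPM with mock (log2 fold change 5.14 ± 0.51, adjusted p = 1.35e-06), and 20.0 ± 7.0 CPM at 24 h, against 1.69 ± 0.43 CPM with mock (3.51 ± 0.39, adjusted p = 4.38e-06; SD, n = 3). *LecRK-VI.4* averaged 10.9 ± 3.3 CPM with flg22 at 9 h, against 0.879 ± 0.187 CPM with mock (3.62 ± 0.35, adjusted p = 1.07e-06), and 19.3 ± 3.8 CPM at 24 h, against 2.15 ± 0.78 CPM with mock (3.14 ± 0.33, adjusted p = 2.79e-06). *LecRK-I.8* averaged 10.2 ± 4.7 CPM with flg22 at 9 h, against 3.19 ± 0.99 CPM with mock (1.63 ± 0.29, adjusted p = 0.000383), and 10.8 ± 4.2 CPM at 24 h, against 2.72 ± 0.74 CPM with mock (2.00 ± 0.29, adjusted p = 8.76e-05). The groups of these 3 genes did not overlap at either time. *LecRK-I.7* was at 49.3, 28.8 and 57.9 CPM with flg22 at 9 h, against 18.4, 17.0 and 31.0 CPM with mock (1.02 ± 0.18, adjusted p = 0.000399). Its groups overlapped there although flg22 was higher in 3 of 3 experiments, and the call was lost without the block for the experiment (adjusted p = 0.0453), without a filter on low counts (log2 fold change 0.99) and without experiment 1 (adjusted p = 0.0274), as that of *LecRK-I.8* was without experiment 1 (adjusted p = 0.0211). At 24 h *LecRK-I.7* was at 39.6, 25.1 and 31.2 CPM with flg22, against 8.03, 5.66 and 12.7 CPM with mock (1.94 ± 0.19, adjusted p = 1.24e-06), with no overlap.

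The genes that did not pass the test at 1 h did not pass it later. *LecRK-I.9* averaged 15.3 ± 3.7 CPM with flg22 at 9 h, against 17.7 ± 1.3 CPM with mock (log2 fold change -0.23 ± 0.15), and 12.6 ± 0.3 CPM with flg22 at 24 h, against 11.8 ± 0.1 CPM with mock (0.09 ± 0.15). The *LecRK-I.9* groups did not overlap at 24 h, but by a margin that did not pass the test (adjusted p = 0.723). *LecRK-IX.1* was at 5.38, 6.37 and 5.61 CPM with flg22 at 9 h, against 6.82, 8.30 and 7.68 CPM with mock, lower in 3 of 3 experiments and with no overlap, but its log2 fold change of -0.39 ± 0.24 did not pass the test (adjusted p = 0.222). At 24 h it had a log2 fold change of 0.20 ± 0.27. *LecRK-I.10*, with 0 to 44 counts in each Col-0 library, had -0.43 ± 0.55 at 9 h and 0.60 ± 0.60 at 24 h. At 1 h and at 9 h, experiment 2 gave the lowest flg22 level of all 6 members that rose, and at 24 h of 4 of them. Among the mock libraries of the same genes it gave the lowest level of 4 of 6 at each time, and its part in the fold changes is measured by leaving it out: 6 members were called at each of the 3 times without it.

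The difference between the times was then tested itself. The flg22 effect at 9 h was smaller than at 1 h for 3 members and larger for 0, against 4.13% and 1.16% of all genes, and 0 were larger at an unadjusted p below 0.05. The effect of *LecRK-IX.2* fell by 4.02 ± 0.49 on the log2 scale (adjusted p = 3.88e-05), that of *LecRK-VI.2* by 2.97 ± 0.46 (adjusted p = 0.000374) and that of *LecRK-I.7* by 1.62 ± 0.26 (adjusted p = 0.000514). Only the call of *LecRK-IX.2* remained without the block for the experiment, where *LecRK-VI.2* had an adjusted p of 0.0127 and *LecRK-I.7* of 0.0769. Without experiment 1 the adjusted p was 0.0131 for *LecRK-VI.2* and 0.0117 for *LecRK-I.7*, and without experiment 2 it was 0.0192 for *LecRK-I.7*. At 24 h the effect was smaller than at 1 h for 2 members and larger for 0, against 2.79% and 0.65% of all genes. At an unadjusted p below 0.05, 4 members were smaller and 0 larger. *LecRK-IX.2* had a difference of -3.73 ± 0.53 (adjusted p = 0.000295) and *LecRK-VI.2* one of -3.24 ± 0.43 (adjusted p = 0.00016). The call of *LecRK-IX.2* was lost without experiment 3 (adjusted p = 0.0122). For *LecRK-VI.3* the difference at 24 h was -2.40 ± 0.60 (adjusted p = 0.0182) and for *LecRK-I.7* -0.70 ± 0.26 (adjusted p = 0.11), and neither passed the threshold. *LecRK-VI.4* and *LecRK-I.8* differed from 1 h by -0.09 ± 0.50 and -0.12 ± 0.40 at 9 h, and by -0.58 ± 0.46 and 0.26 ± 0.41 at 24 h, none of which passed the test.

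Mock seedlings were compared between times to see how far the baseline moved. From 1 to 9 h, 2 members were higher and 0 lower (also at an unadjusted p below 0.05), against 5.08% and 2.98% of all genes. *LecRK-IX.2* mock levels averaged 1.69 ± 0.21 CPM at 9 h, against 0.338 ± 0.196 CPM at 1 h (log2 difference 2.39 ± 0.42, adjusted p = 0.000476), and *LecRK-I.7* 22.1 ± 7.7 CPM, against 6.57 ± 2.91 CPM (1.79 ± 0.19, adjusted p = 2.79e-06). The call of *LecRK-IX.2* was lost without experiment 2 (adjusted p = 0.014) and with limma-voom (adjusted p = 0.0168). At 24 h, 2 members were higher than at 1 h and 1 lower, against 5.84% and 3.38% of all genes. *LecRK-VI.2* mock levels averaged 13.5 ± 1.1 CPM at 24 h, against 2.07 ± 0.96 CPM at 1 h (2.81 ± 0.33, adjusted p = 9.78e-06), and those of *LecRK-VI.3* 1.69 ± 0.43 CPM, against 0.375 ± 0.312 CPM (2.23 ± 0.50, adjusted p = 0.00252). *LecRK-IX.1* mock levels averaged 2.11 ± 0.44 CPM at 24 h, against 7.23 ± 0.62 CPM at 1 h (-1.81 ± 0.26, adjusted p = 6.21e-05). The call of *LecRK-VI.3* was lost without the block (adjusted p = 0.0164), without experiment 2 (adjusted p = 0.0154) and without experiment 3 (adjusted p = 0.0309). Time after the mock treatment and hour of the day cannot be told apart between 1 and 9 h. The methods do not give the hour of treatment. If all groups shared it, harvests at 1 and 24 h fell near the same hour of the day. The part of either was not tested.

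The 5 other accessions were compared at 1 h to see how the response varies within *A. thaliana*. In Can-0, 6 of 8 members tested rose and 0 fell, against 11.3% and 5.15% of all genes. In Gy-0 it was 6 of 9 and 0, against 10.5% and 4.32%, and in Kn-0 4 of 8 and 0, against 7.57% and 1.65%. Kon had 6 of 8 and 0, against 12.9% and 7.47%, and No-0 5 of 8 and 0, against 13.6% and 7.11%. At an unadjusted p below 0.05, 1 member was lower in Kn-0 (*LecRK-I.9*) and 0 in the other 4, and limma-voom and the DESeq2 Wald test called 0 lower in all 5. Over the 8 comparisons of flg22 with mock, Col-0 included, *LecRK-VI.2*, *LecRK-VI.3*, *LecRK-VI.4* and *LecRK-IX.2* rose in all 8, *LecRK-I.7* in 7 and *LecRK-I.8* in 6. *LecRK-I.9* and *LecRK-IX.1* passed the test in 0 of the 8, and *LecRK-I.10* in 0 of the 4 in which it was tested. The share of all genes that rose in as many comparisons was not worked out. Col-0 libraries were sequenced separately from those of the other accessions, and Col-0 values are therefore set beside theirs with no test.

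**Figure D2:**
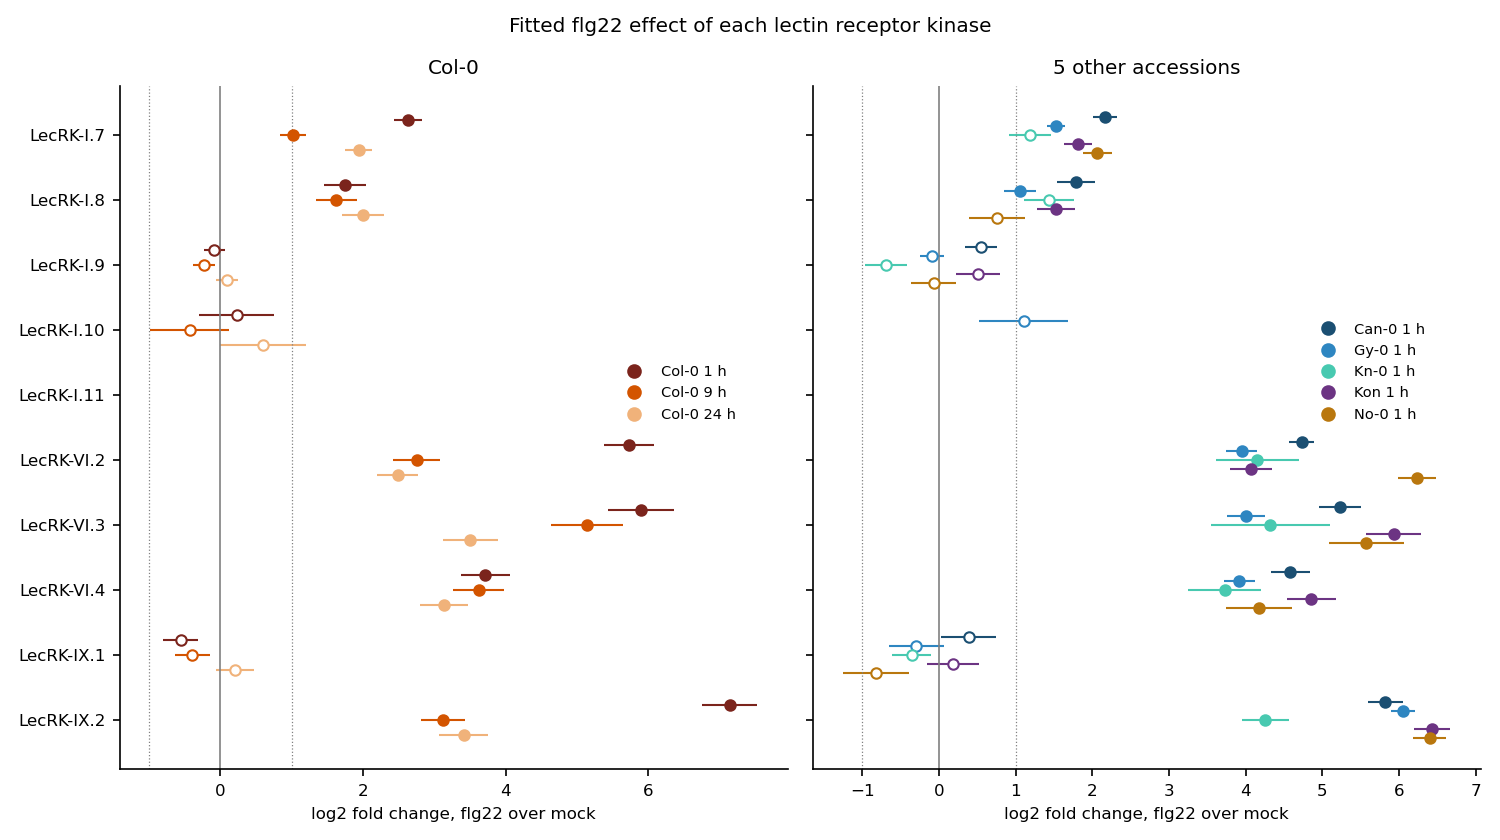
Fitted log2 fold change of flg22 over mock (horizontal axis) for each gene (vertical axis), in Col-0 at 1, 9 and 24 h (left) and in the 5 other accessions at 1 h (right). Bars are 1 SE, filled points are calls, dotted lines mark log2 fold changes of 1 and -1, and *LecRK-I.11* has no point because it was not tested. *LecRK-IX.2* reaches 7.14 in Col-0 at 1 h, and the points of *LecRK-I.9* and *LecRK-IX.1* lie on both sides of 0.

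*LecRK-IX.2* levels with flg22 differed most visibly among the accessions. They were 175, 220 and 118 CPM with flg22 in Kon, against 1.96, 1.70 and 2.04 CPM with mock, and 34.9, 40.3 and 30.5 CPM with flg22 in Kn-0, against 2.53, 2.35 and 0.914 CPM with mock. Thus every Kon flg22 library lay above every Kn-0 flg22 library, while the mock libraries of both overlapped. The means of the other accessions lay between, with 94.5 ± 24.6 CPM with flg22 against 1.63 ± 0.28 CPM with mock in Can-0, 73.2 ± 26.6 against 1.10 ± 0.25 CPM in Gy-0 and 107 ± 14 against 1.28 ± 0.23 CPM in No-0 (SD, n = 3). The fitted log2 fold changes were 5.82 in Can-0, 6.05 in Gy-0, 4.26 in Kn-0, 6.43 in Kon and 6.40 in No-0, with SEs of 0.16 to 0.30. The accession by treatment interaction, fitted without a block for the experiment, was called for 0 of the 8 members tested in edgeR, against 0.375% of all 19980 genes, and for 0 members with limma-voom. At an unadjusted p below 0.05 there were 2 members (*LecRK-IX.2* and *LecRK-VI.2*). *LecRK-IX.2* had the smallest p (0.000114, adjusted p = 0.0192), and with a block for the experiment it was called (adjusted p = 0.00122). *LecRK-IX.2* was also called without experiment 3 (adjusted p = 0.00999). Over the other settings its adjusted p ranged between 0.0192 without a filter on low counts and 1 without experiment 2.

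The clade VI members rose in all 5 accessions. *LecRK-VI.2* was at 38.2, 44.2 and 52.5 CPM with flg22 in No-0, against 0.697, 0.477 and 0.606 CPM with mock (log2 fold change 6.23 ± 0.25, adjusted p = 1.18e-29), and at 82.3, 61.1 and 39.6 CPM with flg22 in Gy-0, against 7.33, 4.64 and 1.29 CPM with mock (3.95 ± 0.20, adjusted p = 1.58e-08). The flg22 levels of No-0 and Gy-0 overlapped and the mock levels did not, and the interaction for *LecRK-VI.2* did not pass the test (adjusted p = 0.585). The mock level of *LecRK-VI.2* differed among the accessions (adjusted p = 0.00488), the 1 member of 8 for which this was called, against 13% of all genes. Its lowest mean, 0.593 ± 0.110 CPM in No-0, was 7.45 times below the highest, 4.42 ± 3.02 CPM in Gy-0. The call was lost with limma-voom (adjusted p = 0.0842), without experiment 1 (adjusted p = 0.0828) and without experiment 2 (adjusted p = 0.107). The mock means of *LecRK-VI.3* (0.113 CPM in No-0, 0.750 CPM in Gy-0) and *LecRK-VI.4* (0.287 CPM in No-0, 1.13 CPM in Gy-0) were also lowest in No-0 and highest in Gy-0, with adjusted p of 0.0911 and 0.0375. *LecRK-VI.3* had log2 fold changes between 4.01 ± 0.24 in Gy-0 and 5.93 ± 0.36 in Kon, and *LecRK-VI.4* between 3.73 ± 0.47 in Kn-0 and 4.86 ± 0.32 in Kon. The submitters' processing notes name TAIR10 for these libraries, and the study based its comparison of accessions on reads mapped to the Col-0 reference genome. The part of sequence differences in these level differences was not tested.

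**Figure D3:**
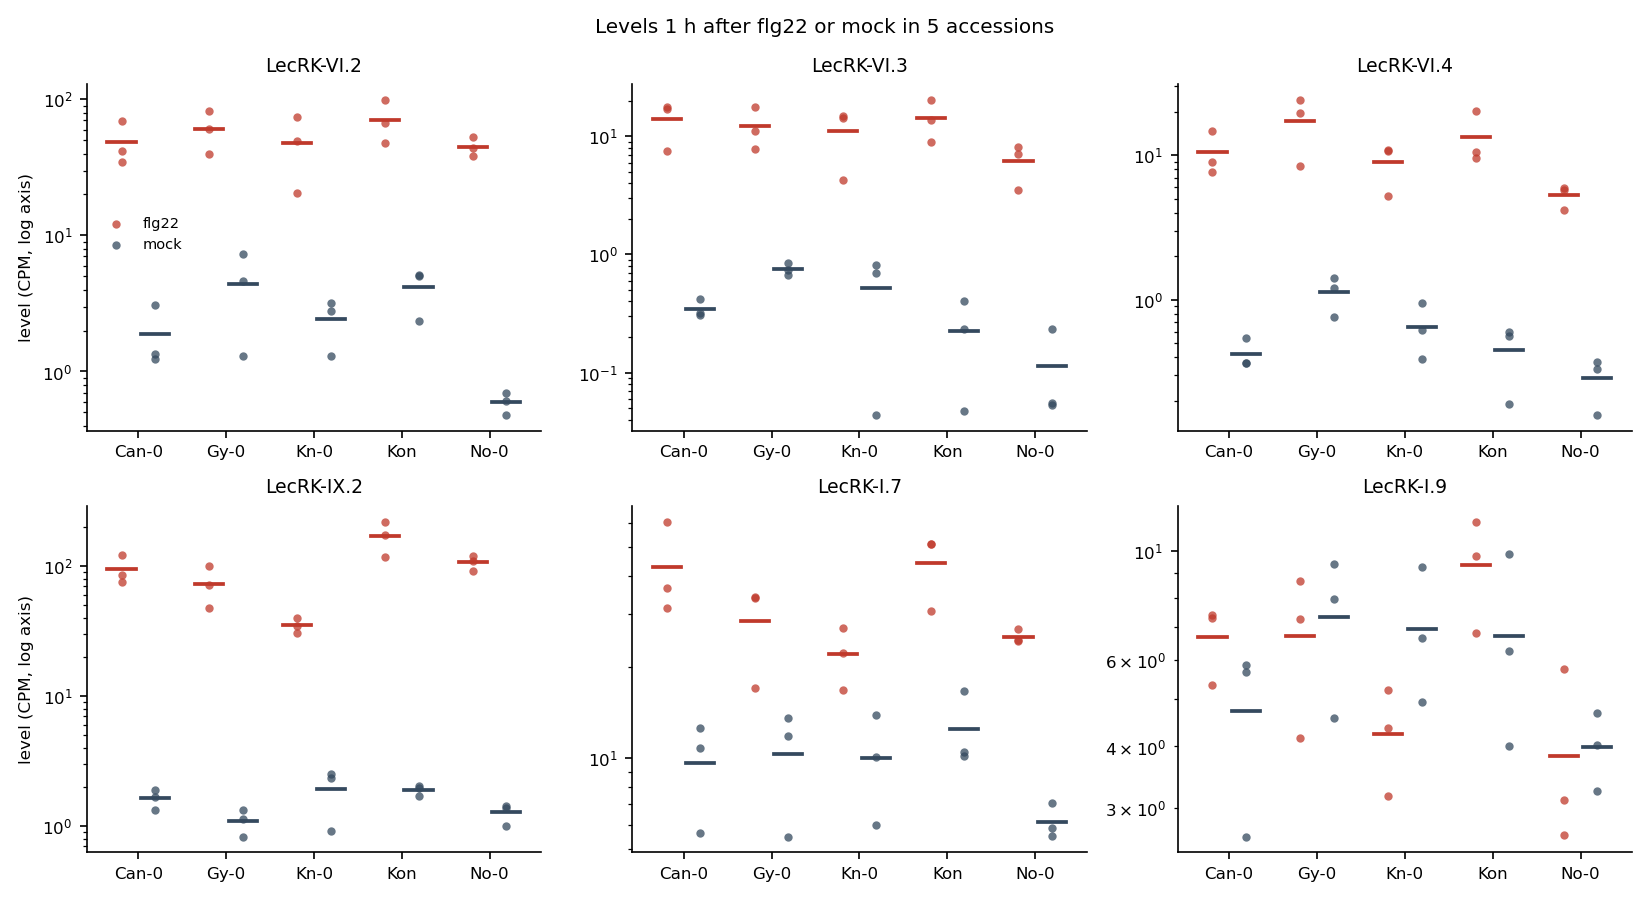
Level of 6 of the genes (vertical axis, CPM on a log axis) 1 h after flg22 (red, left) or mock (blue, right) in 5 accessions. Each point is 1 library and each bar the mean of 3 libraries. The *LecRK-IX.2* flg22 mean is 171 CPM in Kon and 35.3 CPM in Kn-0, and the *LecRK-VI.2* mock points of No-0 lie below those of the other accessions.

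The tested clade I members and *LecRK-IX.1* had smaller fold changes than the clade VI members and *LecRK-IX.2* in each accession. *LecRK-I.7* had log2 fold changes of 2.16 ± 0.16 in Can-0, 1.52 ± 0.12 in Gy-0, 1.82 ± 0.18 in Kon and 2.07 ± 0.19 in No-0, which were called. In Kn-0 it was at 16.8, 26.9 and 22.3 CPM with flg22, against 10.1, 13.9 and 5.96 CPM with mock, groups that did not overlap, but the log2 fold change of 1.19 ± 0.27 did not pass the threshold (adjusted p = 0.0236). *LecRK-I.8* rose in Can-0 (1.79 ± 0.25), Gy-0 (1.05 ± 0.21) and Kon (1.52 ± 0.25), and was at 1.43 ± 0.32 in Kn-0 (adjusted p = 0.0219) and 0.75 ± 0.37 in No-0 (adjusted p = 0.0831). These calls of *LecRK-I.8* were lost without the block for the experiment, with adjusted p of 0.0137 in Can-0, 0.171 in Gy-0 and 0.0148 in Kon, as was that of *LecRK-I.7* in Gy-0 (adjusted p = 0.042). In Gy-0 the call of *LecRK-I.8* was also lost without experiment 1 (adjusted p = 0.0121) or without experiment 2 (adjusted p = 0.0327). In Kn-0, *LecRK-I.7* was called without experiment 1 (adjusted p = 0.00634) and without experiment 2 (adjusted p = 0.000968), and *LecRK-I.8* without experiment 2 (adjusted p = 0.00236); the DESeq2 Wald test called both (adjusted p = 0.000485 and 0.00785). *LecRK-I.9* had log2 fold changes from -0.69 ± 0.28 in Kn-0 to 0.55 ± 0.21 in Can-0, and *LecRK-IX.1* lay between -0.82 ± 0.43 in No-0 and 0.38 ± 0.36 in Can-0, none past the test. *LecRK-I.10* was abundant enough to be tested in Gy-0 alone (1.11 ± 0.58, adjusted p = 0.144).

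Listed orthologs allowed *LecRK-I.7*, *LecRK-VI.3* and *LecRK-IX.2* to be followed in the 3 other species. They were taken from a list of genes that the study chose for their response in these libraries, so that values are described with no test. All 3 orthologs were higher with flg22 at 1 h in each species, in 3 of 3 experiments. *LecRK-IX.2* orthologs were at 22.0, 19.4 and 19.4 CPM with flg22 in *C. rubella*, against 0.337, 0.484 and 0.329 CPM with mock, and at 19.9, 35.5 and 26.0 CPM with flg22 in *C. hirsuta*, against 0.0365, 0.340 and 0 CPM with mock. The *E. salsugineum* ortholog was at 155, 150 and 160 CPM with flg22, against 11.9, 18.8 and 13.3 CPM with mock. Its mock libraries held 228 or more counts each, and its log2 fold change was 3.41 ± 0.15, beside 5.74 ± 0.51 in *C. rubella* and 7.89 ± 0.97 in *C. hirsuta*, where the mock libraries held few reads. At 9 h the *E. salsugineum* ortholog was at 39.4 ± 6.6 CPM with flg22, against 28.1 ± 1.4 CPM with mock, and at 24 h at 21.6 ± 1.2 CPM with flg22, against 18.6 ± 1.3 CPM with mock (log2 fold changes 0.48 ± 0.14 and 0.22 ± 0.14; SD, n = 3). At 24 h the log2 fold change was 4.17 ± 0.51 in *C. rubella* and 3.97 ± 0.85 in *C. hirsuta*.

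The *LecRK-VI.3* orthologs had log2 fold changes at 1 h of 3.91 ± 0.39 in *E. salsugineum*, 4.94 ± 0.42 in *C. rubella* and 5.10 ± 0.45 in *C. hirsuta*. Their flg22 levels at 1 h were 69.4 ± 12.9 CPM in *C. rubella*, against 2.39 ± 1.26 CPM with mock, 12.4 ± 3.8 CPM in *C. hirsuta*, against 0.368 ± 0.043 CPM with mock, and 37.0 ± 10.5 CPM in *E. salsugineum*, against 2.69 ± 3.04 CPM with mock. In all 3 species the fold change at 9 h, between 1.73 and 2.78 on the log2 scale, was below that at 1 h. The *LecRK-I.7* orthologs had log2 fold changes at 1 h of 3.82 ± 0.22 in *C. rubella*, 1.87 ± 0.15 in *E. salsugineum* and 1.30 ± 0.18 in *C. hirsuta*. In *C. rubella* the *LecRK-I.7* ortholog was at 56.1, 50.6 and 59.8 CPM with flg22, against 4.05, 2.77 and 4.93 CPM with mock, and in *C. hirsuta* at 20.5, 26.9 and 22.9 CPM with flg22, against 8.26, 10.6 and 9.74 CPM with mock. As in Col-0, the mock level of the *LecRK-I.7* ortholog was higher at 9 h than at 1 h in each species, with log2 differences of 1.32 ± 0.21 in *C. rubella*, 1.01 ± 0.15 in *E. salsugineum* and 0.67 ± 0.18 in *C. hirsuta*. Counts of the species come from separate genomes and annotations, and levels are not compared across them by a test.

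**Figure D4:**
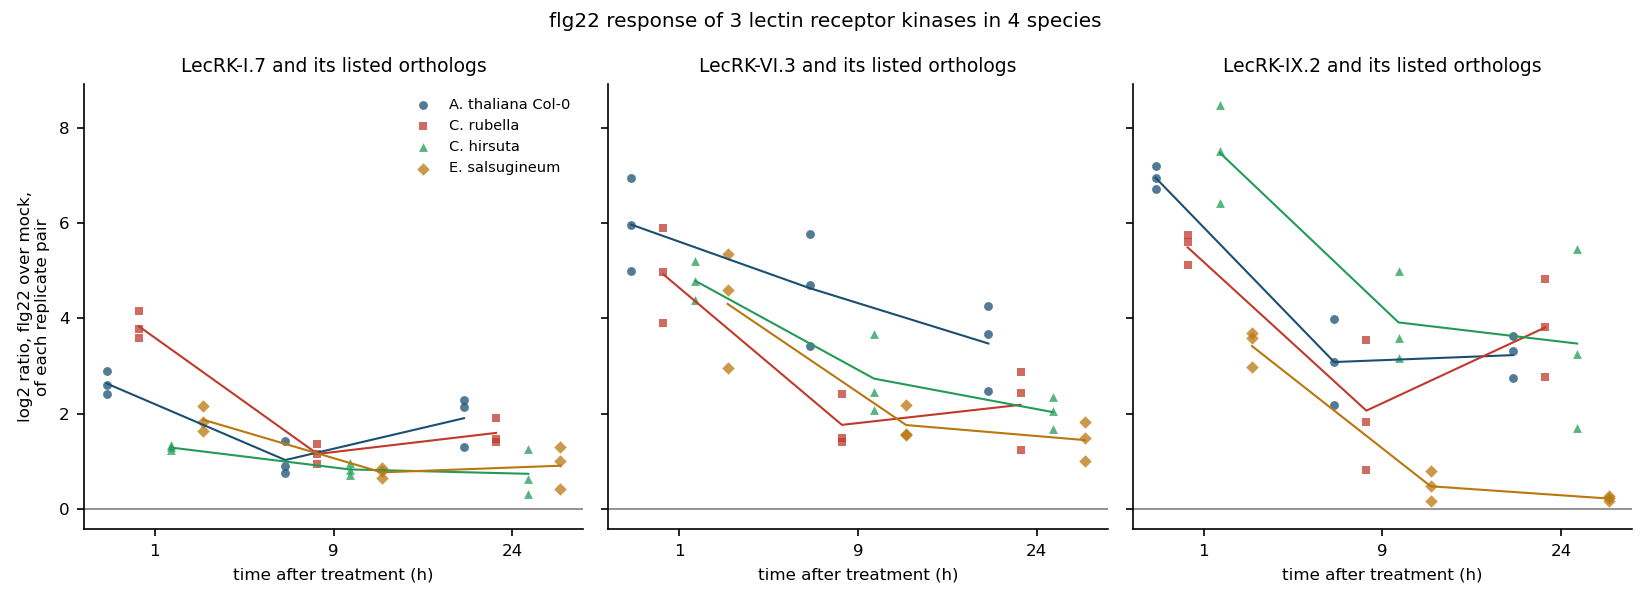
Log2 ratio of flg22 over mock in each of the 3 experiments (points; log2 CPM with a prior count of 2) at 1, 9 and 24 h (horizontal axis) for *LecRK-I.7*, *LecRK-VI.3* and *LecRK-IX.2* in Col-0 and for their listed orthologs in the 3 other species. Lines join the means. The *LecRK-IX.2* ratio of *E. salsugineum* lies near 0 at 24 h, where its fitted log2 fold change is 0.22, and that of Col-0 is 3.41.

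For the setting of these 10 genes in their family, the 35 other L-type lectin receptor kinase genes were counted in the same fits. They include the remaining genes of clades I and VI. In Col-0 at 1 h, 13 of 28 tested rose and 0 fell, with a median log2 fold change of 1.37, and 0 fell with limma-voom or the DESeq2 Wald test (1 was lower at an unadjusted p below 0.05). *LecRK-V.2* (5.22 ± 1.02, adjusted p = 0.000733), *LecRK-VII.2* (4.61 ± 0.23, adjusted p = 9.33e-11) and *LecRK-V.5* (3.63 ± 0.20, adjusted p = 3.77e-10) had the largest fold changes among the calls, below those of *LecRK-VI.2*, *LecRK-VI.3* and *LecRK-IX.2*. *LecRK-V.2* averaged 1.93 ± 1.40 CPM with flg22, against 0.0516 ± 0.0894 CPM with mock (SD, n = 3), so that its fold change rests on few reads. Its SE covers the gap to *LecRK-VI.2* and *LecRK-VI.3*. At 9 h 6 of 28 rose and 1 fell, and at 24 h 11 rose and 0 fell. In the accessions, the counts were 10 higher and 2 lower of 22 tested in Can-0, 11 and 2 of 26 in Gy-0, 8 and 0 of 27 in Kn-0, 12 and 2 of 25 in Kon, and 12 and 2 of 23 in No-0. Without experiment 2 the higher count of Kn-0 was 13, and without experiment 1 that of Col-0 at 24 h was 7. The lower counts were less stable: that of Can-0 was 0 without the block, without experiment 2 or without experiment 3, that of Gy-0 was 1 without the block or without experiment 3, and that of Kon was 1 without the block, without experiment 1 or without experiment 2. The lower count of Kn-0 was 1 without a filter on low counts, without experiment 3, with limma-voom or with the DESeq2 Wald test, and that of Col-0 at 9 h was 2 with the DESeq2 Wald test. The shares that rose exceeded those of all genes given above for each comparison, so that a rise after flg22 was not limited to the 10 genes.

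**Figure D5:**
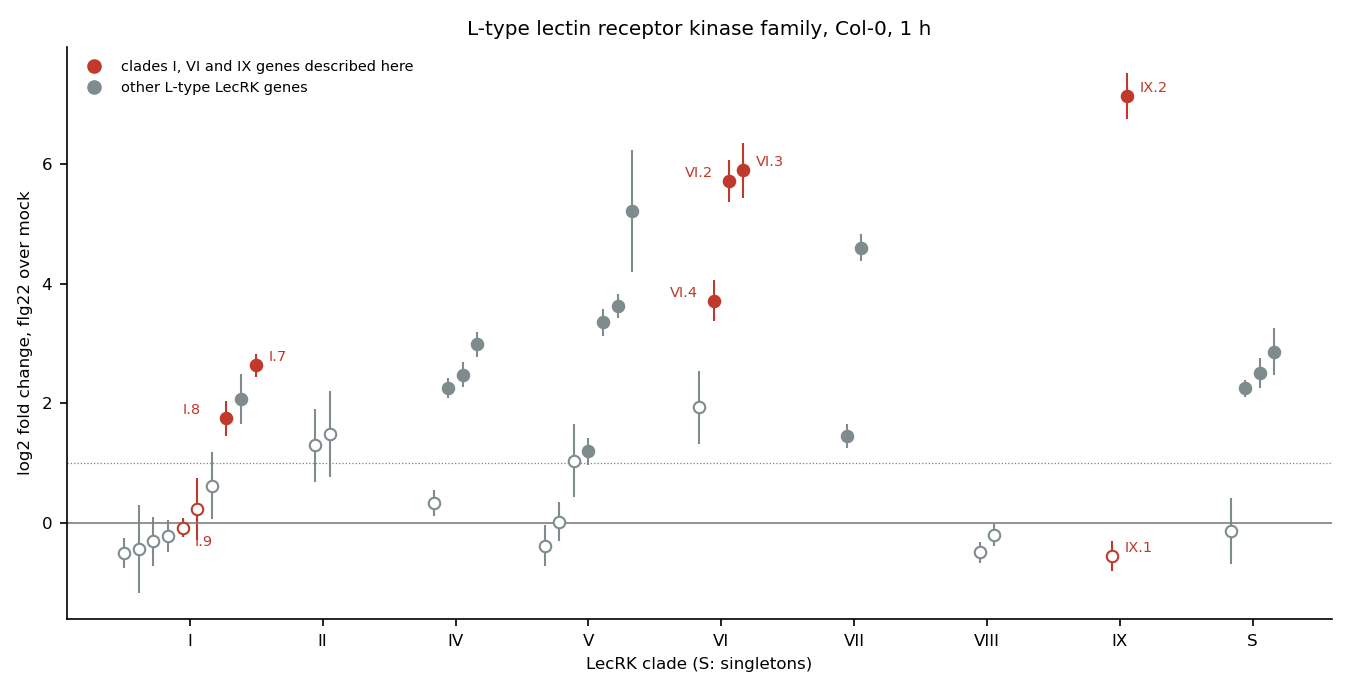
Fitted log2 fold change of flg22 over mock in Col-0 at 1 h (vertical axis) for the tested L-type lectin receptor kinase genes by clade (horizontal axis), with the genes described here in red and the others in grey. Bars are 1 SE, filled points are calls and the dotted line marks a log2 fold change of 1. *LecRK-IX.2* at 7.14 lies above all others, and 13 of the 28 grey points are filled.

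Of the signalling genes upstream, *FLS2* rose by 1.63 ± 0.16, *BAK1* by 2.05 ± 0.13, *BIK1* by 2.62 ± 0.17 and *RBOHD* by 2.82 ± 0.28 on the log2 scale in Col-0 at 1 h, all of them called. At 9 h only *BIK1* of these was called (1.10 ± 0.16), beside *FLS2* at 0.07 ± 0.16, *BAK1* at 0.84 ± 0.12 and *RBOHD* at 0.54 ± 0.26. At 24 h *BIK1* (1.59 ± 0.17) and *RBOHD* (1.36 ± 0.26) were called, beside *FLS2* at 0.80 ± 0.16 and *BAK1* at 0.92 ± 0.12, whose adjusted p of 0.00181 and 3.01e-05 passed but whose fold changes were below the threshold. In the accessions *BAK1*, *BIK1* and *RBOHD* were called in all 5, and *FLS2* in 4, with 1.56 ± 0.43 in Kn-0 (adjusted p = 0.0436).

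Genes with the most similar course were found by Pearson's correlation of log2 CPM over the 18 Col-0 libraries, with the same correlation over the 30 libraries of the other accessions beside it. The values are descriptive, since libraries share treatments and experiments. For *LecRK-IX.2* they were *CYP81F2*, a cytochrome P450 of indole glucosinolate metabolism (r = 0.990, accessions 0.978), *SYP122*, a plasma membrane syntaxin (0.983, accessions 0.986), and *WAKL10*, a wall-associated kinase-like gene (0.980, accessions 0.973). For *LecRK-VI.2* they were *EXO70H4*, an exocyst subunit gene (0.978, accessions 0.933), AT4G19460 (0.963, accessions 0.925) and AT1G65486 (0.961, accessions 0.708). For *LecRK-I.9* they were AT1G22910 (0.893, accessions -0.474), *CSLA03*, a cellulose synthase-like gene (0.862, accessions -0.058), and AT2G27770 (0.830, accessions -0.682), so that none of the 3 correlations of *LecRK-I.9* was positive in the accessions.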

How the data were processed

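RNA-seq was analysed from the count tables of 102 libraries, one column per library, and each library was assigned to its group by its label. The deposited values are raw read counts per gene. The authors trimmed reads with cutadapt 1.5, mapped them with TopHat2 to TAIR10 or to the genome of the species, and ran HTSeq 0.6.0 with its defaults, under which a read with several alignments is not counted. HTSeq's summary lines were left out of library sizes and tests. They made up 12.2% to 50% of a library's column sum in Col-0 and 7.11% to 10.4% in the accessions. The line for alignments without a unique position was 8.81% to 42.8% of the column sum in Col-0. A read with several alignments may enter that line more than once, so that these are not shares of reads. All 102 libraries held 14039779 to 36897285 counted reads.

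Counts were scaled by TMM and tested in edgeR 4.0.16 (R 4.3.3) with the quasi-likelihood F-test over genes that averaged 10 counts or more in a library, with the replicate number as a block, since mock and flg22 libraries of a number come from the same independent experiment. In the 9 Col-0 pairs the deviations from the group means correlated above 0.1 in 6 (median 0.19), and in the accessions in 15 of 15 (median 0.521). Genes were called at an adjusted p below 0.01 and an absolute log2 fold change above 1. The 18 Col-0 libraries were fitted together and each accession on its own. The 30 libraries of the 5 accessions were fitted together without a block for the interaction and the mock levels, which were called at an adjusted p below 0.01 alone. SEs were taken from the log2 fold change and its F statistic. Alternatives were limma-voom (limma 3.58.1), DESeq2 1.42.0, its size factors, no filter, no block (or, for the 5 accessions, a block), plain sums for CPM and leaving out each replicate number. The scripts were tested on simulated data.

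The text names all 10 members, *FLS2*, *BAK1*, *BIK1*, *RBOHD* and *FRK1*, the 3 other L-type lectin receptor kinase genes with the largest fold change among those called in Col-0 at 1 h, and the 3 genes most correlated with *LecRK-IX.2*, *LecRK-VI.2* and *LecRK-I.9*. *LecRK-VI.1* is named as a further gene of clade VI. The members and lists were chosen with earlier results of these data known. Upstream sequences, motifs and positions are from TAIR10.1 (RefSeq), to which all 10 locus identifiers matched. No pair of libraries of a group agreed within sampling noise. SEs and p-values rest on the spread between 3 experiments, with a variance that edgeR moderates over all genes of a fit, and cover no other source of variation. The size of a p-value is therefore not compared between accessions fitted on their own.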

Additional observations from a re-analysis of the deposited data

Results flagged for a closer look

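In Col-0 the flg22 effect differed between times by the interaction test for *LecRK-I.7* (9 h minus 1 h, -1.62), for *LecRK-VI.2* (9 h minus 1 h, -2.97, and 24 h minus 1 h, -3.24) and for *LecRK-IX.2* (9 h minus 1 h, -4.02, and 24 h minus 1 h, -3.73), all as log2 differences from edgeR.

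*LecRK-I.9* was higher with flg22 in all 3 experiments in Can-0 and lower in all 3 in Gy-0 and in Kn-0, and the mean log2 ratio of Can-0 exceeded that of Gy-0 by 0.69 and that of Kn-0 by 1.24. These pairwise differences were not tested, and edgeR's interaction test over the accessions gave an adjusted p of 1.

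*LecRK-I.10* was higher with flg22 in all 3 experiments in Col-0 at 24 h and lower in all 3 at 9 h, with a difference of 1.36 on the log2 scale that was not tested and that rests on 0 to 43 counts per library. The log2 ratio at 24 h was 2.67 in experiment 2, whose mock library held 0 counts, and 0.16 and 0.18 in experiments 1 and 3, and the difference was 0.68 without experiment 2.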

How the results depend on the processing

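Of 794 log2 fold changes of members recomputed under an alternative, 753 kept their direction and their side of the threshold, 22 lost the call, 5 gained it and 14 changed sign, none of the 14 called. *LecRK-VI.2*, *LecRK-VI.3*, *LecRK-VI.4* and *LecRK-IX.2* kept their calls of flg22 against mock under each alternative run. Without the replicate block, 1 rather than 3 members differed in effect between 9 h and 1 h (1 to 3 when each replicate number was left out). For 24 h against 1 h, leaving out a number gave 1 to 2 members rather than 2. For mock at 9 h against 1 h, limma-voom gave 1 rather than 2 and leaving out a number 1 to 2. Among the 5 accessions, the replicate block gave 1 rather than 0 members with a differing flg22 effect, and leaving out a number 0 to 1. Limma-voom gave 0 rather than 1 with a differing mock level, and leaving out a number 0 to 1. Over all genes, the block changed the first of these counts to 359, against 75, and the mock count to 6410, against 2588, and leaving out a number gave 0 to 12 and 717 to 2383.

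Mock levels of *LecRK-I.8* at 24 h against 1 h differed by -0.001 on the log2 scale, by 0.06 without the block, by 0.018 with DESeq2's size factors and by 0.10 with limma-voom, and leaving out a number gave -0.27 to 0.28. Other sign changes appeared when a number was left out: *LecRK-I.10* in Col-0 at 1 h (-0.079 to 0.611), *LecRK-I.9* at 9 h (-0.446 to 0.009) and in No-0 (-0.42 to 0.29), *LecRK-IX.1* in Gy-0 (-0.64 to 0.21) and for mock at 9 h against 1 h (-0.057 to 0.12), and the differences in effect between 9 h and 1 h of *LecRK-I.9* (-0.305 to 0.052), *LecRK-VI.3* (-2.04 to 0.094), *LecRK-VI.4* (-0.33 to 0.14) and *LecRK-IX.1* (-0.17 to 0.58), and between 24 h and 1 h of *LecRK-I.8* (-0.018 to 0.43). The cause was not tested. Of 128 counts of the other L-type lectin receptor kinases, an alternative added after seeing the data, 113 stayed within 1.5 times. CPM by plain sums moved 7 of 160 means by more than 1 SD, 4 of them flg22 levels of No-0 (*LecRK-IX.2* 79.9 rather than 107 CPM, *LecRK-VI.2* 33.0 rather than 45.0 CPM). Depth limits *LecRK-I.10* and *LecRK-I.11*, and the mock levels of *LecRK-VI.3* and *LecRK-IX.2* at 1 h. The numbers pair the samples by the independent experiment they mark.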

Other observations

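Between *LecRK-I.9* and *LecRK-I.10*, the pair with the most similar coding sequences (82.8% identity), levels were far apart in Col-0 with flg22 at 1 h (6.60 and 0.672 CPM per kb) and with mock (6.97 and 0.587 CPM per kb). In clade IX, with 71.8% identity, *LecRK-IX.2* had 23.9 and *LecRK-IX.1* 2.65 CPM per kb with flg22 at 1 h, and 0.167 and 3.70 CPM per kb with mock, so that the order of the pair was turned round between the treatments.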
